A study of Mus musculus with 48 samples.

Results

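The genes described here are 43 genes of DNA replication and of entry into S phase, the period of the cell cycle in which the genome is copied. They were taken by symbol from a table of 24444 genes, and all 43 were present. The members are 7 genes of the MCM helicase and its partner MCM10, 5 of origin recognition and licensing, 5 of CDC45 and GINS, 6 of the sliding clamp and its loader, 6 of the polymerases and primase, 2 of single-strand binding, 2 of flap processing and ligation, 3 of nucleotide synthesis, 2 of chromatin assembly and 5 regulators of the G1 to S transition.

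RNA was sequenced from the dissected cortex of male C57BL/6J mice, 1 hemisphere per mouse, either on embryonic day 14.5 (E14.5) or after birth, when mice were 1, 6 or 12 months old. At each age, 6 WT mice were compared with 6 heterozygous littermates, written Chd8 V986*/+, in which 1 copy of Chd8 holds a premature stop codon and the other copy is WT in every cell. Chd8 encodes a chromatin remodeler. The allele was made with CRISPR/Cas9 and is constitutive, so no promoter or Cre restricts it to a cell type, and the labels name no treatment.

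Cells license replication origins in G1, when the origin recognition complex, CDC6 and CDT1 load the MCM helicase onto DNA. Cyclin E with CDK2 then promotes the start of S phase, CDC45 and GINS join MCM to form the active helicase, and the polymerases copy the strands with the help of a sliding clamp. E2F transcription factors drive many of these genes at the G1 to S transition, and the retinoblastoma proteins hold E2F back in resting cells. In the cortex at E14.5, radial glia and intermediate progenitors divide beside the ventricle while neurons are being produced, whereas nearly all neurons of the postnatal cortex have left the cell cycle.

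The values are variance-stabilized (VST) expression values on a log2 scale, on which a difference of 1 is a doubling for well expressed genes. The most frequent value, 2.1433, served as the floor, and differences of genes close to it are understated. Every member lay at least 0.5 above the floor in the mean of each of the 8 groups, and the lowest group mean was 3.49, that of Orc1 in WT mice at 12 months. All 43 were therefore tested in every comparison. VST values are not per length, so levels are compared between mice and not between genes. No depth of single genes can be read from these values, and precision is given by the SD or SE over 6 mice.

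Chd8, the targeted gene, was lower in the heterozygotes at every age with no overlap between genotypes. In order of age, the log2 differences were −0.63, −0.67, −0.64 and −0.54 (adjusted p = 0.0261, 3.01e-06, 1.07e-07 and 0.00261, limma). At E14.5, all 14 markers of cortical progenitors were measured above the floor. Genes of midbrain, hindbrain and spinal cord were also measured at that age, and 24 of these 31 genes had a WT mean at least 0.5 above the floor, against 15 of 31 in the heterozygotes. Hoxb6, Hoxb7, Hoxb8, Hoxc5, Hoxc6, Hoxc8 and Hoxd4 lay close to the floor in both genotypes.

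A promoter was found for 35 of the members in the RefSeq table of the GRCm38.p6 build, which holds the 250 bases before and 50 bases after a gene's start. The other 8 had none by symbol, namely Mcm4, Gins1, Gins2, Gins4, Rfc2, Prim2, Pole and Ccne2. An E2F motif (TTTCGCGC, TTTCCCGC or TTTGGCGC, on either strand) was present in 14 of the 35 members, or 40%. Across all 27025 genes of the table the share was 2.12%, and across all 32851 promoters of the same length it was 1.84%. The 14 members were Mcm3, Mcm5, Mcm6, Mcm7, Orc1, Cdc6, Cdt1, Gins3, Rfc3, Pola1, Pold1, Lig1, E2f2 and Cdk2. The CHR motif (TTTGAA on either strand), known from promoters of mitotic genes, was found in 5 of the 35 members, or 14.3%, beside 20.2% of all genes. These are matches of letters and not measured binding sites.

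Upstream windows of 6 members are shown because they span the groups described in the results: helicase subunits with a large fall, licensing factors, a kinase that differed between postnatal ages, and Ccne1, the member that did not fall. The 250 bases before each start are given along the gene's strand, with E2F motifs in capitals. They are chr1:128359706-128359955 (minus strand) for Mcm6, chr8:75109259-75109508 (plus) for Mcm5, chr11:98907901-98908150 (plus) for Cdc6, chr4:108579204-108579453 (plus) for Orc1, chr10:128705052-128705301 (minus) for Cdk2 and chr7:38107491-38107740 (minus) for Ccne1.
Mcm6: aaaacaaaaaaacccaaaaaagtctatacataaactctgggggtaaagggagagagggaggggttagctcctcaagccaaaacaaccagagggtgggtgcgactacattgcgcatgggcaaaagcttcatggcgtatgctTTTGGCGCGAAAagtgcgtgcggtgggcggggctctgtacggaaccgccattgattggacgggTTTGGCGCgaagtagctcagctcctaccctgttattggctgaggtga
Mcm5: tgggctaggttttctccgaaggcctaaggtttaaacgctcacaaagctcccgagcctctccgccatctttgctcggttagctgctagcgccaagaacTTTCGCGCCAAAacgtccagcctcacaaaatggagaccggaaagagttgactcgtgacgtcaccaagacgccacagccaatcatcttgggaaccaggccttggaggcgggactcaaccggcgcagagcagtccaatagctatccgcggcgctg
Cdc6: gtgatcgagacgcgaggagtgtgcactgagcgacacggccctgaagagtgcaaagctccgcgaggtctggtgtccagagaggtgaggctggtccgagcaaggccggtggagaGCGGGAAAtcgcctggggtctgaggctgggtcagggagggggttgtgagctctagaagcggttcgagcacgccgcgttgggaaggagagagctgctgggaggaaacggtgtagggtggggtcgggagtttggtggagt
Orc1: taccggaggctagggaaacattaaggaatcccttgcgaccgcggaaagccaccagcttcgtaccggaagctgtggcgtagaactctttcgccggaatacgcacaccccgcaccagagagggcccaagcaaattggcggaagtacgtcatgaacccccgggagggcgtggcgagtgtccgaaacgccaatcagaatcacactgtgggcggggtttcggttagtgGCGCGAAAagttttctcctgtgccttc
Cdk2: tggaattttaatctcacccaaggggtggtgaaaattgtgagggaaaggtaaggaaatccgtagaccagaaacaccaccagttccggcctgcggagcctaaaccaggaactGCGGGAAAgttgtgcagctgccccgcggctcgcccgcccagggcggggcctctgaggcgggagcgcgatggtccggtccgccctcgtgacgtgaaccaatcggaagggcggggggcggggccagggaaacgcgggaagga
Ccne1: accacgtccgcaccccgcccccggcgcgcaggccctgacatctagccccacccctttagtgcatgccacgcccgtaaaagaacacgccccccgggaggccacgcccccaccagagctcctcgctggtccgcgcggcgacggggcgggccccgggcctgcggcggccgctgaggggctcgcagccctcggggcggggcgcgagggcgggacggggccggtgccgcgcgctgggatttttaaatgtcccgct
Mcm6 held 3 matches, at −110, −106 and −47 from the start, of which the first pair overlap. Mcm5 held an overlapping pair, at −153 and −149, and the single matches of Cdc6, Orc1 and Cdk2 began at −138, −27 and −140. The Ccne1 window held no E2F motif in these letters. The windows of Rrm2, Chaf1b and Mcm2, the members with the largest falls in WT mice, held none either and are not shown.

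The first comparison asked how the members changed between the embryonic and the postnatal cortex. In WT mice, 42 of 43 members fell from E14.5 to 1 month and 1, Ccne1, rose (adjusted p below 0.1, limma). Among all 17285 genes tested, 42.3% fell and 43.4% rose, so change in itself was common at this interval. The size and direction of the members' differences stood beside a median of 0.02 for all genes, as the median difference of the members was −2.89 on the log2 scale. At least a halving, a difference of −1 or below, was measured for 36 members, beside 17.7% of all genes, and for 36 members beside 18.3% in Chd8 V986*/+ mice. Falls of 3 or more were measured for 19 members and of 4 or more for 7, sizes at which the shares of all genes were not counted. For 42 members every mouse at 1 month lay below every embryo, beside 33.5% of genes tested. In bulk tissue, fewer cells of a type and less RNA per cell cannot be told apart.

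The same counts were found in Chd8 V986*/+ mice, with 42 members lower and Ccne1 higher and a median of −3.02, beside 0.02 for the 17227 genes tested. For 42 members the ages did not overlap, beside 33.9% of genes falling in that way. In that genotype 42.4% of all genes fell and 43.7% rose. The mean of the 43 members per mouse was 9.68 ± 0.23 in WT embryos and 9.85 ± 0.15 in Chd8 V986*/+ embryos (SD, n = 6). From 1 to 12 months the 36 postnatal mice of both genotypes lay between 6.88 and 7.14.

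**Figure D1:**
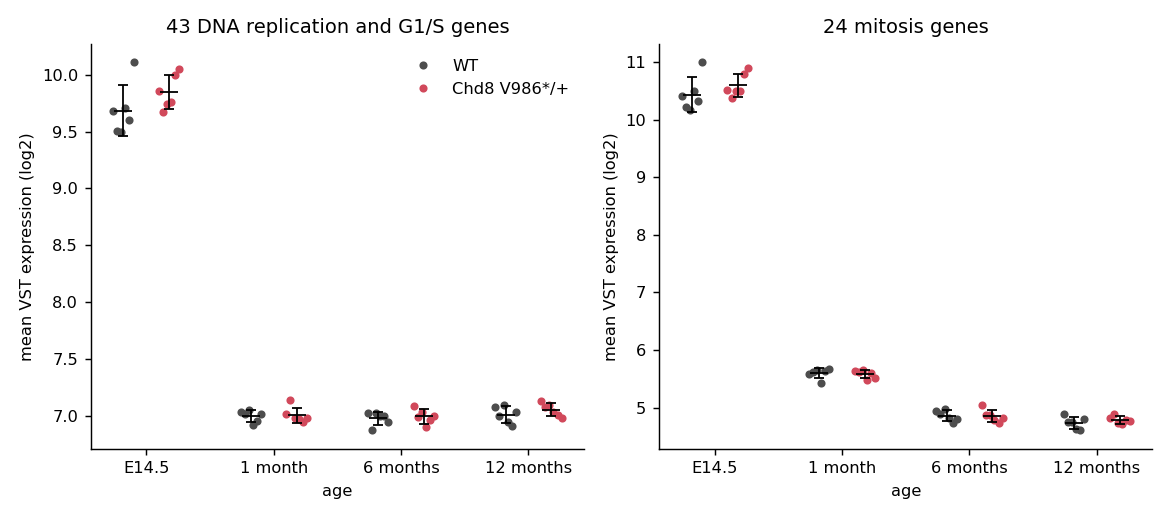
Mean VST expression (log2) of the 43 DNA replication and G1/S genes (left) and of 24 mitosis genes (right) in each mouse, by age and genotype, where points are mice and bars are the mean and SD of 6 mice. The members lie between 6.88 and 7.14 at all postnatal ages, whereas the mitosis genes fall further between 1 and 6 months.

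The MCM helicase, the motor that unwinds DNA ahead of the fork, fell as a whole. All 7 genes of the group fell in WT mice, by log2 differences from −4.43 (Mcm2) to −2.80 (Mcm4) with a median of −3.76. Mcm2, on chromosome 6 from 88833469 to 88848774 in mm9, ran from 11.04 to 11.87 in WT embryos (median 11.25) and from 6.68 to 7.11 at 1 month (median 6.84). This is a difference of −4.43 ± 0.12 (SE, adjusted p = 1.63e-14, limma), or 21.6-fold. Mcm3, on chromosome 1 from 20793055 to 20810359, ran from 10.56 to 11.45 and then from 6.19 to 6.66, a difference of −4.41 ± 0.13. MCM10, which helps to activate the helicase, fell by 4.09 ± 0.16 on the log2 scale.

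Licensing genes did not fall alike. CDC6 and CDT1, which load MCM, had differences of −3.98 ± 0.19 and −3.61 ± 0.15. Orc1, the largest subunit of the origin recognition complex, fell by 2.88 ± 0.27, while Orc6 fell by 0.97 ± 0.07. Values of Orc1 ran from 2.24 to 4.30 in WT mice at 1 month, the lowest near the floor, so its fall is understated. Orc2, another subunit, on chromosome 1 from 58519615 to 58561953, kept most of its embryonic level. It ran from 9.85 to 10.29 in WT embryos (median 9.97) and from 9.62 to 9.80 at 1 month (median 9.71), a difference of −0.29 ± 0.07 (adjusted p = 0.000854, limma). Every postnatal value of Orc2 at 1 month was still below every embryo, although the gap between the groups was small.

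Within the active helicase, Cdc45 (−3.20), Gins1 (−3.80) and Gins2 (−3.44) fell further than the other GINS subunits, Gins3 (−1.99) and Gins4 (−0.85). The clamp and its loader were also divided. Rfc4 and Rfc3, small subunits of the loader, had differences of −2.96 and −2.89 and Pcna, the clamp itself, of −1.89, while those of Rfc5 and Rfc2 were −1.32 and −1.13. Rfc1, the large subunit, on chromosome 5 from 65653091 to 65726909, changed less than the other subunits. Its WT values were 10.28 to 10.87 at E14.5 (median 10.45) and 9.85 to 10.003 at 1 month (median 9.95), a difference of −0.57 ± 0.08 (adjusted p = 8.67e-06, limma).

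Pole, the catalytic subunit of the leading-strand polymerase, had the largest fall among the polymerases, at 4.32 ± 0.15 on the log2 scale. Pold1, Pola1, Pola2, Prim1 and Prim2, which encode the lagging-strand polymerase subunit and the subunits of the primase complex, showed differences from −2.87 to −1.86. For RPA, which coats single-stranded DNA and also serves in repair, Rpa2 fell by 1.93 and Rpa1 fell by 0.74. Lig1, the ligase that seals Okazaki fragments, fell by 3.24 and Fen1, the nuclease that trims their flaps, fell by 1.79.

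On the VST scale, the largest fall of all members was that of Rrm2, the small subunit of ribonucleotide reductase, which makes deoxyribonucleotides. Falls to low values are understated on this scale, so this order need not be the order of fold changes. Rrm2, on chromosome 12 from 25393106 to 25399011, ran from 11.15 to 12.01 in WT embryos (median 11.38) and from 5.75 to 6.76 at 1 month (median 6.40). The difference was −5.10 ± 0.17 (adjusted p = 1.2e-13, limma), or 34.2-fold. Rrm1, the large subunit of the same enzyme, fell by 3.04 and Tyms, thymidylate synthase, fell by 4.13. Chaf1b, a subunit of the complex that places histones on newly copied DNA, on chromosome 16 from 93884146 to 93906360, came next to Rrm2. It ran from 8.66 to 9.54 in WT embryos and from 3.69 to 5.01 at 1 month, a difference of −4.76 ± 0.19. The values at 1 month were low enough for this fall to be understated, so no fold is given. Chaf1a, its partner, fell by 2.96.

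The regulators of the G1 to S transition divided. Cdk2, the kinase that partners cyclin E, and E2f2, an activator E2F, fell with differences of −3.34 ± 0.12 and −3.30 ± 0.20, and Ccne2 fell by 1.17. E2f1, the other activator E2F among the members, on chromosome 2 from 154385143 to 154395628, ran from 8.87 to 9.66 in WT embryos (median 9.12) and from 8.55 to 8.68 at 1 month (median 8.60). Its difference was −0.54 ± 0.10 (adjusted p = 0.000171, limma). Ccne1, cyclin E1, on chromosome 7 from 38883003 to 38892553, went the opposite way, from 7.53 to 8.28 in WT embryos (median 7.97) to 8.30 to 8.64 at 1 month (median 8.55). It rose by 0.60 ± 0.11 (adjusted p = 9.69e-05, limma), and no WT mouse at 1 month lay below a WT embryo. In Chd8 V986*/+ mice Ccne1 rose by 0.35 ± 0.11 (adjusted p = 0.00654, limma), where the ages overlapped.

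**Figure D2:**
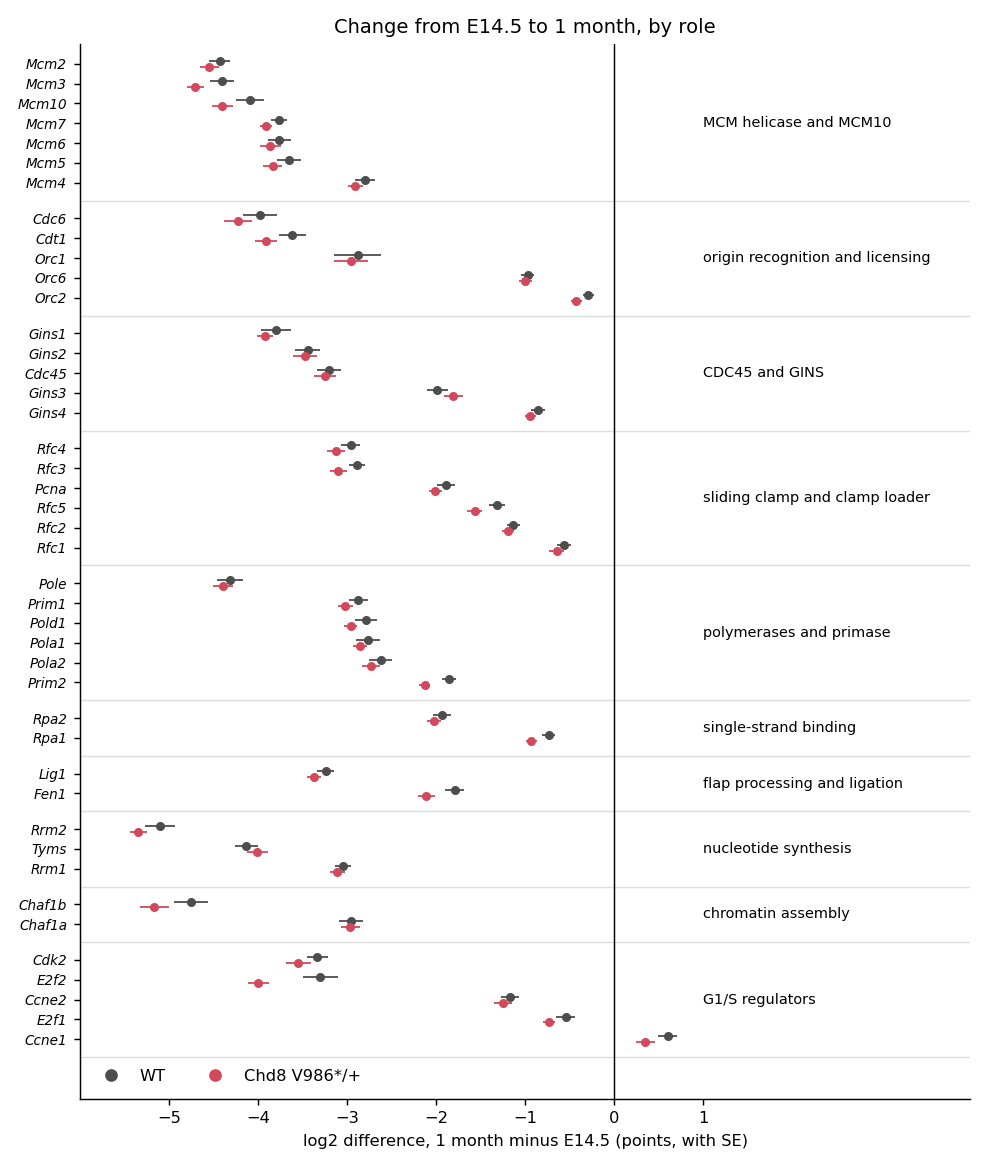
Log2 difference from E14.5 to 1 month for each of the 43 members, grouped by role, in WT and Chd8 V986*/+ mice, with points for the difference and bars for its SE. Members run from −5.10 (Rrm2) to 0.60 (Ccne1) in WT mice, and Orc2, Rfc1, E2f1 and Ccne1 lie nearest to 0 in both genotypes.

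The 14 members with an E2F motif in the promoter window had a median difference of −3.32 in WT mice, with a range from −4.41 to −1.99. The 21 members with a window and no match had a median of −2.62 and ran from −5.10 to 0.60. The windows of Orc2, Rfc1, E2f1 and Ccne1, which changed least, held no E2F motif, and neither did those of Rrm2, Chaf1b and Mcm2. Large falls were therefore seen with and without a match, while the smallest fall among the 14 matched members was that of Gins3 (−1.99).

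Other genes of the same processes were read from lists made for the purpose. Of 13 further licensing and firing genes, 12 fell in WT mice and 1, Orc4 at 0.16, rose, with a median of −1.47. The largest falls were those of Ticrr (−5.43), an activator of origin firing, and Dbf4 (−3.96), the regulatory subunit of the CDC7 kinase. Of 16 further polymerase, clamp loading and fork genes, 15 fell and Pold4 rose by 0.57, and of 8 further nucleotide genes 7 fell and Rrm2b rose by 1.32. Rrm2b encodes the form of the small reductase subunit that serves cells outside S phase, and Tk1 (−4.82), thymidine kinase, fell most in that list. All 7 S phase chromatin genes fell, Uhrf1 (−5.59) and Hells (−4.07) the most, and all 15 further cyclins, kinases and E2F genes fell, led by E2f7 (−4.95) and Ccna2 (−4.52).

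Among 10 brakes on the transition, 9 were tested, of which 4 rose and 5 fell. Cdkn2b (1.71) and Cdkn1a (0.88), inhibitors of cyclin-dependent kinases, rose most, and Cdkn1c (−4.58) and Rbl1 (−3.68), itself a known E2F target, fell most. Cdkn2a was too close to the floor to be tested.

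Markers of cell types moved over the same interval. All 24 mitosis genes fell with a median of −4.81, led by Top2a (−6.09) and Mki67 (−5.70), and all 14 progenitor markers fell with a median of −2.07, led by Eomes (−6.57) and Neurog2 (−6.15). All 10 markers of mature neurons, all 6 of oligodendrocyte precursors, all 6 of oligodendrocytes, all 6 of astrocytes and all 6 of microglia rose, with medians of 3.77, 2.34, 7.90, 5.86 and 2.71. The part of these shifts in the members' values was not tested.

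Between 1 and 6 months few members changed. In WT mice 3 rose and 4 fell, beside 12.3% of the 17255 genes tested in each direction, and the median member difference was 0.04. In Chd8 V986*/+ mice 7 rose and 1 fell, beside 14.0% and 12.8% of 17207 genes, with a median of −0.01. Rrm2, Lig1 and Rfc1 changed in both genotypes, which are separate mice, and make up 42.9% of the WT calls and 37.5% of the Chd8 V986*/+ calls. No test compared the other calls between genotypes.

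Rrm2 went on falling after the first month. WT mice ran from 5.75 to 6.76 at 1 month and from 5.29 to 5.65 at 6 months (median 5.37), a difference of −0.94 ± 0.15 (adjusted p = 0.000395, limma). Chd8 V986*/+ mice ran from 6.15 to 6.497 and then from 5.24 to 5.89, a difference of −0.80 ± 0.13 (adjusted p = 0.000346, limma). The ages did not overlap in either genotype, and such a separation towards lower values was seen for 4.76% and 4.89% of all genes. At 12 months Rrm2 lay between 4.94 and 5.86 in WT mice and between 5.22 and 5.69 in Chd8 V986*/+ mice, which overlapped the range at 6 months.

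Lig1, on chromosome 7 from 13862632 to 13896782, rose instead. It ran from 7.55 to 7.78 at 1 month and from 7.67 to 8.07 at 6 months in WT mice (0.28 ± 0.07, adjusted p = 0.0145, limma) and from 7.48 to 7.80 and then 7.78 to 8.20 in Chd8 V986*/+ mice (0.34 ± 0.08, adjusted p = 0.00665, limma). Rfc1 rose from 9.85 to 10.003 at 1 month to 10.03 to 10.12 at 6 months in WT mice, a small difference of 0.15 ± 0.04 (adjusted p = 0.0147, limma) with no overlap of the ages, as for 3.71% of genes. The call was lost in a fit of all 48 samples (adjusted p = 0.171, limma). In Chd8 V986*/+ mice Rfc1 rose by 0.17 ± 0.05 (adjusted p = 0.0241, limma).

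The other WT calls were Rpa2, which rose by 0.24 ± 0.08, and Cdk2, E2f2 and Rfc5, which fell with differences of −0.57, −0.57 and −0.22. Cdk2, on chromosome 10 from 128134995 to 128142107, ran from 5.62 to 6.09 at 1 month (median 6.07) and from 4.95 to 5.72 at 6 months (median 5.47), with an adjusted p of 0.00731 (limma). In Chd8 V986*/+ mice the difference of Cdk2 was −0.35 ± 0.15 (adjusted p = 0.115, limma).

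In Chd8 V986*/+ mice the further calls were all rises. Rpa1 went from 10.24 to 10.35 at 1 month to 10.44 to 10.59 at 6 months (0.19 ± 0.04, adjusted p = 0.0015, limma), and Fen1 from 7.74 to 8.005 to 8.13 to 8.36 (0.33 ± 0.07, adjusted p = 0.00202, limma), both with no overlap, as for 4.47% of genes. Prim1, the catalytic primase subunit, rose by 0.35 ± 0.10, Pold1 by 0.27 ± 0.08 and Mcm4 by 0.19 ± 0.07. The WT differences of these 5 genes were 0.04, 0.17, 0.13, 0.16 and 0.16 and did not pass the test. Some calls moved with the setting. Fen1 and Mcm4 were also called higher in WT mice with replicate number fitted as a block, beside 14.5% of all genes. Rfc5 and Cdk2 were also called lower in Chd8 V986*/+ mice after quantile scaling, beside 13.1% of all genes, and without replicate 3 of 1 month, beside 12.3%.

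Mitosis genes set a contrast. Of the 24, 21 fell between 1 and 6 months in WT mice and 18 in Chd8 V986*/+ mice, with medians of −0.71 and −0.65. Top2a, which untangles DNA, changed by −1.45 in WT and −1.53 in Chd8 V986*/+ mice, and Mki67, a marker of cycling cells, by −1.19 and −1.44. Among the members the largest fall was that of Rrm2. The difference between the lists was not tested.

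From 6 to 12 months no member was called in WT mice (limma), where 0 were at an unadjusted p below 0.05 and 0.00579% of genes were called lower and 0.00% higher. None was called in Chd8 V986*/+ mice (limma), where 1.07% of genes rose and 2.36% fell and 6 members, all higher, were at an unadjusted p below 0.05, beside 6.65% of genes. Chaf1a (0.27 ± 0.08, adjusted p = 0.109, limma) and Cdk2 (0.33 ± 0.11, adjusted p = 0.144, limma) had the lowest p, and each was higher in all 6 mice at 12 months than in any mouse at 6 months, as for 0.707% of genes.

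**Figure D3:**
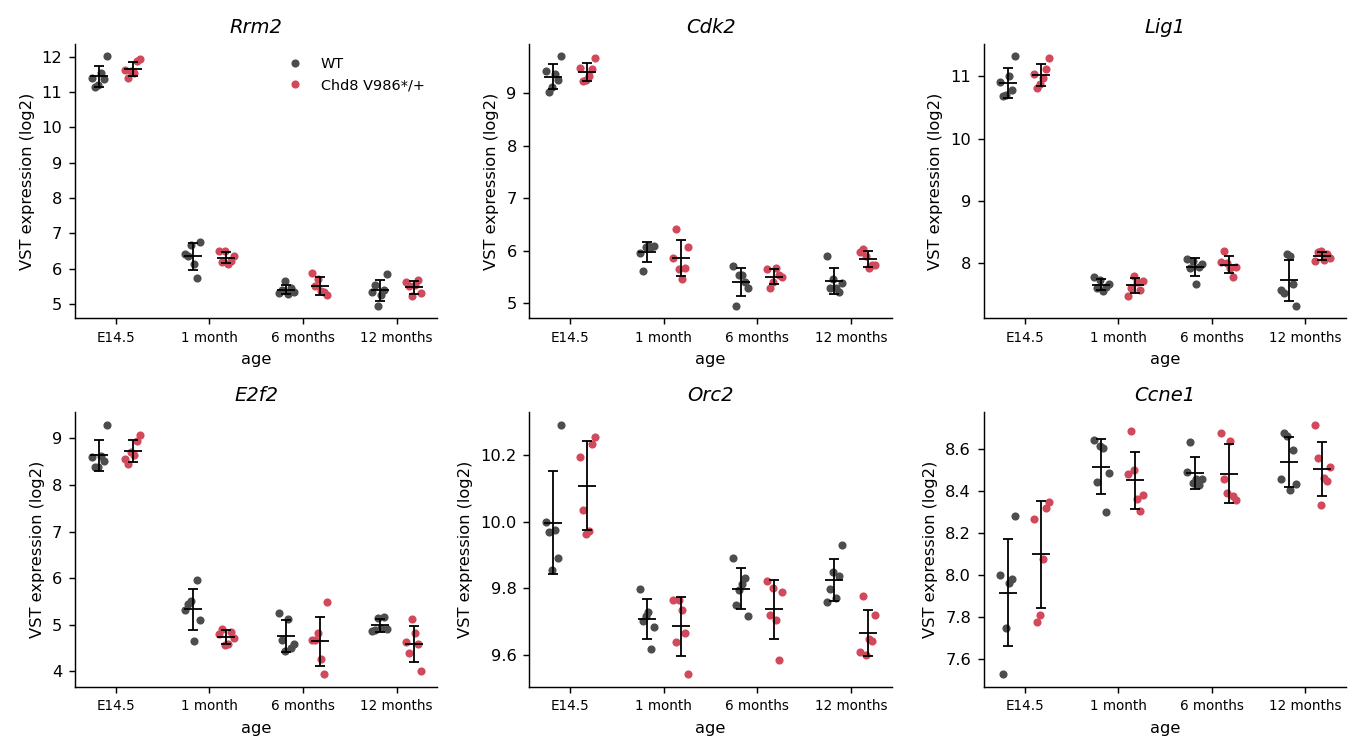
VST expression (log2) of 6 members in each mouse by age and genotype, with points for mice and bars for the mean and SD of 6 mice. The vertical axes differ between panels and do not start at 0. Rrm2 in both genotypes and Cdk2 in WT mice fall again from 1 to 6 months, Orc2 moves by less than 1 over all ages, and the mean of Ccne1 is higher at 1 month than at E14.5 in both genotypes.

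The next comparison was between Chd8 V986*/+ and WT mice of the same age. At E14.5 no member was called in either direction (limma), and 0.00% of 16877 genes were called higher and 0.00593% lower. The 1 gene called was Chd8 itself. With DESeq2, a batch correction and the same threshold, the study reported further genes that differed at E14.5, among them Usp11 and Wars2. The absence of a call here is therefore not the absence of a difference. The members nevertheless leaned one way, as 42 of the 43 were higher in Chd8 V986*/+ embryos, beside 50.4% of all genes, and the median difference was 0.17 beside 0.00102 for all genes. Gins3 was the exception, at −0.05 ± 0.11. The same embryos give all 43 values and the genes vary together between embryos, so the 42 are not independent observations. Differences ran up to 0.30, and no member separated the genotypes, as 0.261% of genes did in either direction.

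An unadjusted p below 0.05 was reached by 5 members, all higher, beside 2.21% of all genes. They were Orc1, Rfc2, Mcm10, Chaf1b and Rfc4, each with an adjusted p of 0.982 (limma). The count depended on the model. With replicate number fitted as a block, 31 members were higher at that p, beside 5.97% of all genes, and none was called (limma). The labels do not say that these numbers mark litters. Orc1, on chromosome 4 from 108252028 to 108288633, ran from 6.16 to 6.86 in WT embryos (median 6.30) and from 6.60 to 6.87 in Chd8 V986*/+ embryos (median 6.67), a difference of 0.28 ± 0.12. Rfc2 ran from 10.04 to 10.40 and from 10.22 to 10.58, a difference of 0.16 ± 0.07, and Mcm10 from 8.53 to 9.36 and from 8.89 to 9.26, a difference of 0.27 ± 0.12. In all these genes the highest WT embryo lay within or above the range of the heterozygotes.

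Per embryo, the mean of the 43 members was 9.68, 9.50, 9.50, 9.70, 9.60 and 10.11 in WT replicates 1 to 6 and 9.86, 9.67, 9.74, 9.76, 9.99 and 10.05 in Chd8 V986*/+ replicates 1 to 6. WT replicate 6 stood apart as the highest of all 12. Without it, the median member difference was 0.26, 33 members had an unadjusted p below 0.05, all higher, beside 5.66% of all genes, and still none was called (limma). Leaving out any other embryo gave medians from 0.13 to 0.21. From 0 to 6 members were then higher at an unadjusted p below 0.05, beside 1.40% to 3.16% of all genes.

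Replicates 1 to 3 and 4 to 6, between which the deposited values are balanced over the whole series, differed at E14.5. The member mean was 9.56 in WT and 9.76 in Chd8 V986*/+ embryos of replicates 1 to 3, and 9.80 and 9.93 in those of replicates 4 to 6. The genotype difference was 0.19 within the first set and 0.13 within the second, with 3 embryos per genotype in each.

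The member mean followed that of the 24 mitosis genes over the 12 embryos (r = 0.98) and that of the 14 progenitor markers (r = 0.91), which come from the same libraries. The 9 ganglionic eminence markers also moved with the members (r = 0.87), and all 9 were higher in Chd8 V986*/+ embryos, with a median of 0.21 and none called (limma). Of these, 3 were at an unadjusted p below 0.05, beside 2.21% of all genes that were higher at that p. Their mean ran from 9.55 to 10.18 in WT and from 9.78 to 10.05 in Chd8 V986*/+ embryos. Markers of mature neurons (r = −0.81) and of oligodendrocyte precursors (r = −0.82) moved against the members, and 8 of 10 and 4 of 6 were lower in Chd8 V986*/+ embryos, with medians of −0.12 and −0.10 and none called (limma, 1 of the 10, which was higher, and 0 of the 6 at an unadjusted p below 0.05). All 24 mitosis genes were higher in Chd8 V986*/+ embryos, with a median of 0.17 and none called (limma, 0 at an unadjusted p below 0.05). The mean of the progenitor markers was 11.40 in WT and 11.49 in Chd8 V986*/+ embryos. Newborn neuron markers (r = 0.35) stood at 12.62 and 12.77, and oligodendrocyte markers (r = −0.64) at 6.69 and 6.78. Astrocyte markers (r = −0.61) stood at 7.77 and 7.67. Microglia (r = 0.23) stood at 6.98 and 7.05, and endothelial markers (r = 0.26) at 9.37 and 9.44. No test was run on these means. Against the mean of the midbrain, hindbrain and spinal cord genes, r was −0.60. The mean of these 31 genes per embryo was 3.69, 4.71, 4.75, 4.20, 6.31 and 3.25 in WT replicates 1 to 6 and 3.36, 3.36, 4.30, 3.77, 3.84 and 3.68 in Chd8 V986*/+ replicates 1 to 6. Of the 22 tested, 21 were lower in Chd8 V986*/+ embryos, with a median of −1.07 and none called (limma, 5 at an unadjusted p below 0.05). At that p, 2.35% of all genes were lower and 2.21% higher. With this mean as a covariate, the median member difference was 0.08 and 0 members had an unadjusted p below 0.05, beside 1.10% of all genes higher at that p. The covariate itself differed between genotypes, at 4.49 in WT and 3.72 in Chd8 V986*/+ embryos, so this fit cannot separate it from genotype. All 7 erythroid genes were also lower, with a median of −0.24, and per embryo their mean ran from 7.99 to 9.76 in WT and from 7.67 to 8.81 in Chd8 V986*/+ embryos. Unlike the mean of the caudal genes, the erythroid mean had a positive r with the member mean (r = 0.41). The part of these genes in the members' difference was not tested.

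**Figure D4:**
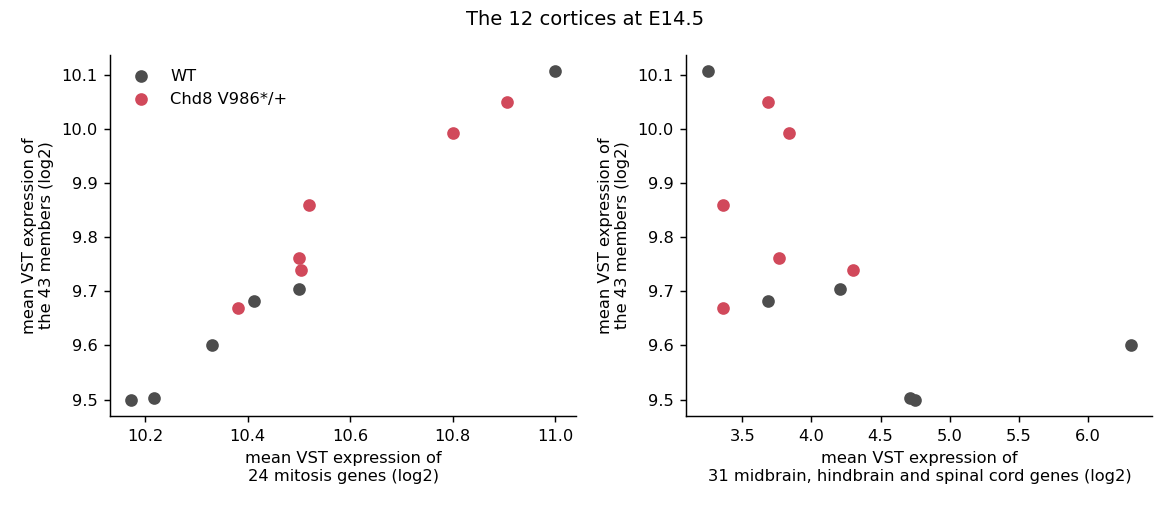
Mean VST expression (log2) of the 43 members in each of the 12 E14.5 embryos against the mean of 24 mitosis genes (left) and of 31 midbrain, hindbrain and spinal cord genes (right), with 1 point per embryo. Over all 12 embryos the members rise with the mitosis genes (r = 0.98), and r with the caudal genes is −0.60. The WT embryo at 10.11 has the highest member mean and the lowest caudal mean. Among Chd8 V986*/+ embryos, replicates 1 and 2 have the lowest caudal means (both 3.36). Their member means are 9.86 and 9.67, the latter the lowest of that genotype.

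After birth the members were divided between the directions. In order of age, 22, 26 and 23 of 43 were higher in Chd8 V986*/+ mice, beside 48.6%, 49.6% and 51.4% of all genes, with medians of 0.00325, 0.02 and 0.03. No member was called at any of these ages (limma) and none separated the genotypes, beside 0.825%, 0.527% and 0.868% of genes that did. The shares of all genes called higher and lower were 0.0348% and 0.105% in 1-month mice, 0.0522% and 0.0406% in 6-month mice and 0.00578% and 0.0405% in 12-month mice.

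At 1 month, 1 member had an unadjusted p below 0.05, beside 5.07% of all genes that were lower at that p. This was E2f2, on chromosome 4 from 135728309 to 135751972, which ran from 4.66 to 5.97 in WT mice (median 5.39) and from 4.57 to 4.92 in Chd8 V986*/+ mice (median 4.76). Its difference was −0.60 ± 0.18 with an adjusted p of 0.333 (limma). Of the 6 WT mice, 5 lay above the highest Chd8 V986*/+ mouse.

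At 6 months, Prim1 (0.22 ± 0.09), Rrm1 (0.16 ± 0.06) and Rpa1 (0.09 ± 0.04) had an unadjusted p below 0.05, all higher, beside 3.54% of genes. Prim1 ran from 6.61 to 6.96 in WT and from 6.77 to 7.18 in Chd8 V986*/+ mice, Rrm1 from 8.94 to 9.24 and from 9.07 to 9.35, and Rpa1 from 10.38 to 10.48 and from 10.44 to 10.59. The adjusted p values were 0.595, 0.595 and 0.611 (limma), and the genotypes overlapped for all 3.

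At 12 months, 6 members were higher and 2 lower at an unadjusted p below 0.05, beside 6.18% and 5.39% of genes. Lig1 ran from 7.32 to 8.15 in WT mice (median 7.62) and from 8.04 to 8.20 in Chd8 V986*/+ mice (median 8.12), a difference of 0.40 ± 0.12 (adjusted p = 0.27, limma). The WT mice of that age were the more scattered, with an SD of 0.34 against 0.07. Cdk2 ran from 5.22 to 5.91 and from 5.68 to 6.03, a difference of 0.42 ± 0.13 (adjusted p = 0.274, limma), in which 1 WT mouse overlapped the heterozygotes. In a fit of all 48 samples, where the spread is shared between ages, Lig1 and Cdk2 were called (adjusted p = 0.0419 and 0.0949, limma), and the shares of all genes called higher and lower were 1.36% and 1.65%. Without WT replicate 3 of that age, Lig1 was called in the fit of the single age (0.48, adjusted p = 0.0749, limma), where 0.630% of genes were called higher.

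The other members higher at 12 months were Pold1 (0.22 ± 0.09), E2f1 (0.27 ± 0.12), Chaf1a (0.33 ± 0.15) and Rrm1 (0.14 ± 0.07). Pold1, the catalytic subunit of polymerase delta, ran from 7.33 to 7.68 in WT and from 7.59 to 8.002 in Chd8 V986*/+ mice. Lower were Orc2, which ran from 9.76 to 9.93 and from 9.60 to 9.78 (−0.16 ± 0.05, adjusted p = 0.29, limma), and E2f2, which ran from 4.87 to 5.16 and from 3.9995 to 5.13 (−0.39 ± 0.17, adjusted p = 0.39, limma). For Orc2, 1 heterozygote reached into the WT range.

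**Figure D5:**
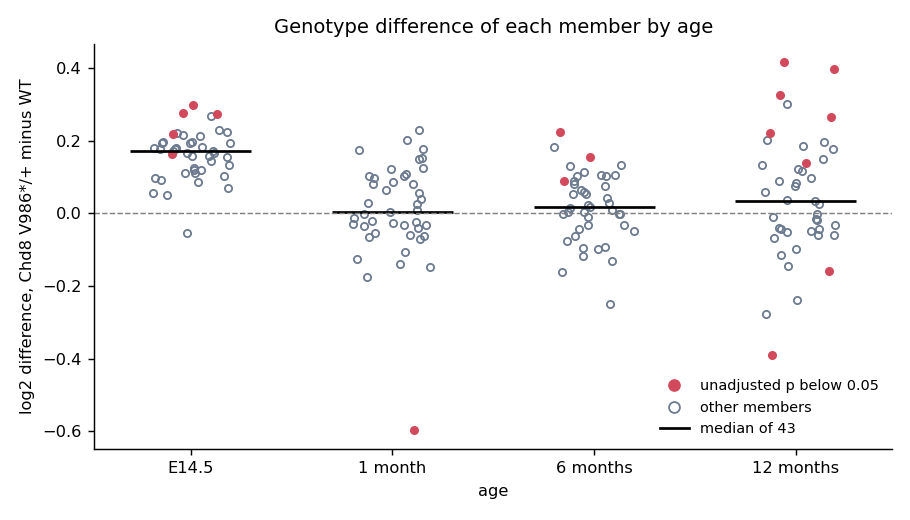
Log2 difference between Chd8 V986*/+ and WT mice for each of the 43 members at each age, with filled points for an unadjusted p below 0.05, open points for other members and bars for the median. At E14.5, 42 of 43 points lie above 0 with a median of 0.17, and at the later ages the medians are 0.00325, 0.02 and 0.03.

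Whether the genotype difference itself changed with age was tested in one fit of all 48 samples. No member was called for 1, 6 or 12 months against E14.5 or for 12 against 6 months (limma). The members with an unadjusted p below 0.05 numbered 4, 2 and 5 against E14.5, all lower at the later age, beside 2.37%, 2.40% and 5.69% of genes, and 2 for 12 against 6 months, both higher, beside 4.45% of genes. Against E14.5, the share of all genes called was 0.00% each way at 1 and 6 months, and 0.0347% higher and 0.0289% lower at 12 months. For 12 against 6 months it was 0.0404% higher and 0.0173% lower. The lowest adjusted p was 0.193 (limma), that of Orc2 at 12 months against E14.5, with a difference of −0.27 ± 0.08. The median member difference was −0.13, −0.14 and −0.11 at 1, 6 and 12 months against E14.5 and 0.00143 for 12 against 6 months.

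The 43 members lie on 14 chromosomes. In the mm9 annotation, exons of 13 members overlap an exon of a gene on the opposite strand, among them Orc1, Orc2, Lig1, Fen1, Rfc4 and Rfc5, and Mcm7 also holds the microRNA genes Mir25 and Mir93 on its own strand. The sources differ on whether the libraries kept strand, so reads of these genes and their partners may not be fully separated.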

How the data were processed

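RNA from the cortex of 48 mice, 6 per genotype and age, was sequenced. Per the labels and the study's methods, the authors trimmed and filtered the reads, aligned them with STAR 2.5.2b to mm9 and quantified genes with Salmon 0.11.3. The deposited table holds variance-stabilized values on a log2 scale, made by the authors with DESeq2. For every gene the mean over all samples numbered 1 to 3 equalled that over all samples numbered 4 to 6 (largest difference 3.2e-14). The size of any overall offset between these sets cannot be read from these values, and the sets still differed within groups. No counts were used, and precision rests on 6 mice. The study reports a read depth for each sample, which was not used here.

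Genotypes at each age and successive ages within a genotype were compared with limma 3.58.1 in R 4.3.3 (empirical Bayes with a trend, 12 samples per fit) over genes with a mean at least 0.5 above the floor. Genotype by age differences used one fit of 48 samples. Genes with a Benjamini-Hochberg adjusted p below 0.1 over all genes tested were called. The labels do not say that replicate numbers mark litters. The members and the gene lists were chosen with earlier results of these data known. Genes were named by their rank in each comparison or as the lowest and highest of a list. Alternatives were the filter, the trend, quantile and median scaling, sample sets, a marker covariate, a replicate block and leaving out each mouse. Gene positions are from the mm9 annotation and promoter windows from RefSeq on GRCm38.p6.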

Additional observations from a re-analysis of the deposited data

Results flagged for a closer look

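Of 176 groups of 6 mice examined, 14 held a mouse whose gap to its nearest neighbour exceeded Dixon's 95% critical share of the group's range, and chance flags about 1 in 20 groups. In WT embryos, replicate 6 was the highest for the mean of the 43 members, at 10.11 beside 9.50 to 9.70. The same embryo was the highest for Mcm2 (11.87 beside 11.04 to 11.31), E2f2 (9.30 beside 8.38 to 8.63), Rpa1 (11.44 beside 10.93 to 11.12), Fen1 (10.32 beside 9.65 to 9.84) and Orc2 (10.29 beside 9.85 to 9.998). At 1 month, replicate 2 of the Chd8 V986*/+ mice had the highest mean of the members, at 7.14 beside 6.95 to 7.02.

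The other values so marked were single genes in WT mice. At 1 month they were Orc1 in replicate 2 (2.24 beside 3.58 to 4.30), Cdk2 in replicate 2 (5.62 beside 5.95 to 6.09) and Mcm10 in replicate 5 (4.12 beside 4.69 to 4.97). At 6 months they were Lig1 in replicate 4 (7.67 beside 7.93 to 8.07) and Ccne1 in replicate 2 (8.63 beside 8.43 to 8.49). At 12 months they were Cdk2 (5.91 beside 5.22 to 5.47) and Fen1 (8.20 beside 8.35 to 8.43), both in replicate 1. The causes were not tested.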

How the results depend on the processing

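The fall from E14.5 to 1 month kept its counts of members under the alternatives run. Of 843 alternative values for 40 results on single members, 839 kept their direction and their side of the threshold, 3 gained a call, 1 lost it (Rfc1 from 1 to 6 months in WT mice in one fit of 48 samples, adjusted p = 0.171, limma) and 0 turned. At 12 months, 2 members were higher in Chd8 V986*/+ mice in one fit of 48 samples, beside 1.36% of all genes. Leaving out single mice gave 0 to 1 (1 without WT replicate 3, beside 0.630%). From 1 to 6 months in WT mice, 6 rose with a replicate block, beside 14.5% of all genes, and 6 without the trend, beside 11.1%. After quantile scaling 5 rose, beside 13.7%, and after median scaling 6, beside 13.9%. Leaving out mice gave 3 to 6 (6 without WT replicate 5 of 6 months, beside 10.7%). In Chd8 V986*/+ mice, 2 fell in one fit of 48 samples, beside 9.71% of all genes, and 3 after quantile scaling, beside 13.1%. Leaving out mice gave 1 to 3, beside 10.8% to 12.5% of all genes. There were 3 without replicate 3 of 1 month, and 2 without replicates 1 or 4 of 1 month or 2, 3 or 5 of 6 months. From 6 to 12 months in Chd8 V986*/+ mice, 1 rose with a filter of 1.5, beside 1.33% of all genes, and 1 without the trend, beside 0.638%. Leaving out mice gave 0 to 1 (1 without replicate 1 of 12 months, beside 0.887%). With the replicate block, 2 members (Orc2 and Rpa1) had a lower genotype difference at 12 months than at E14.5, beside 0.635% of all genes, and 31 members had an unadjusted p below 0.05 between genotypes at E14.5, all higher, beside 5.97% of all genes, with 0 called (limma). Deviations of embryos with the same number correlated at a mean r of 0.23, above 0.1 in 4 of 6 pairs. Of the 12 embryos, 7 correlated best with their own number, against 2, 2 and 1 of 12 mice at 1, 6 and 12 months. As not every pair passed 0.1, the numbers were not taken as pairs. Quantile scaling moved the median of all genes from E14.5 to 1 month to −0.10 in WT and −0.11 in Chd8 V986*/+ mice, beside −3.01 and −3.13 for the members. The causes were not tested.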
